A study of Mus musculus with 9 samples.

Results

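The regions described here are stretches of open chromatin between genes that were called as peaks on days 8 and 21 after T cell transfer and not on day 4. Joining the peaks of the 9 lists that shared at least 1 base gave 62963 union regions. Regions were chosen by these calls: a region was taken when it had a peak in all 6 lists of days 8 and 21, had none in the 3 lists of day 4, overlapped no protein-coding gene and lay over 1 kb from any gene end. This gave 4641 regions, which were 7.37% of the union regions and 38.4% of the 12094 regions called only late. The other late-called regions were 5920 inside genes, over 1 kb from any gene end, and 1533 within 1 kb of an end on either side of it. The choice used the calls themselves, so the absence of peaks on day 4 and their presence on days 8 and 21 are descriptions and not findings.

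Open chromatin was mapped by ATAC-seq, a method that uses Tn5 transposase to cut and tag accessible DNA. The cells were P14 CD8 T cells, whose transgenic receptor recognises the LCMV peptide GP33-41 presented by H-2Db, from donor mice with a TCF-1-GFP reporter. Naive donor cells (CD44-, GFP+; 500000 per host) were given to C57BL/6 mice 8 days after subcutaneous B16.F10 melanoma cells carrying the LCMV glycoprotein (B16.Gp), and wild-type P14 cells were sorted from tumor-draining lymph nodes as CD45.1+ CD44+ CD8 T cells. The groups were day 4 (D4), day 8 (D8) and day 21 (D21) after transfer, with 3 libraries each and 50000 cells per library. All 3 groups shared the tumor, the transgenic receptor and the reporter, so every cell had 1 specificity, and no group without a tumor is analysed here. The labels give no age, and whether same-day libraries came from different animals is not stated, so p-values measure the spread between these lists, which may be technical.

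Most enhancers lie away from the genes they act on, either between genes or in introns, and they open when transcription factors displace nucleosomes there. In CD8 T cells, RUNX and ETS factors occupy many such elements, AP-1 and NFAT factors bind them after receptor stimulation, T-box factors such as T-bet and Eomes bind them in effector cells, and TCF-1 and LEF-1 bind them in naive, memory and stem-like cells. Regions between genes can also be the promoters of long noncoding RNAs (lncRNAs) or microRNAs (miRNAs), which are not counted as protein-coding genes. The nearest gene is used below only as an address, since an enhancer may act on a gene farther away.

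The 9 lists held 353295 peaks on chromosomes 1 to 19 and X, with 19499 to 22250 in a D4 list, 47513 to 50835 in a D8 list and 46492 to 51671 in a D21 list. Library sizes in reads are not part of the lists. The lowest local background of any peak in a list, which grows with the number of reads, was 2.62 to 3.38 tags on D4, 2.14 to 2.63 on D8 and 2.33 to 3.08 on D21. When every list was reduced to its 19499 strongest peaks, the same rule gave 153 regions, of which 122 were among the 4641. The late calls therefore move with the length of the lists, and the part of list length in them was not tested. In bulk libraries, more cells with a region open and a region more open in each cell cannot be told apart. Regions within 1 kb of a gene end were called in all 9 lists for 5 of 6 T cell markers (Cd3e, Cd3g, Cd2, Cd8a and Cd8b1), and for Thy1 in the 6 later lists only. Of 29 marker genes of other cell types, 15 had no such region in any list, among them Pax5, Ms4a1, Lyz2, Adgre1, Foxp3, Ncr1, Cdh5, Tyr and Dct. Itgam, Pmel and Klf1 had one in all 9 lists, and Cd4, Flt3 and Kdr were among those with one in the 6 later lists only.

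Some of the regions can be shown by sequence because they cover the promoter of a lncRNA or lie beside a miRNA gene. No genome sequence was used here, so sequences come from RefSeq tables for GRCm38.p6, the assembly of mm10. Of 4489 regions on the chromosomes those tables cover, 105 (2.34%) overlapped the window from 250 bases before to 50 bases after the start of a noncoding gene. Of the 2898 regions between genes that were called in all 9 lists, 231 (7.97%) did. In 89 windows the late-called region covered at least 50% of the bases. Of the 6 of these whose region ranked highest, 4 are shown, which hold matches to 4 of the 5 motifs marked here. Capitals mark matches, on either strand, to TGANTCA (AP-1), AGGAAG (ETS), TGTGGTT (RUNX), CTTTGAT (TCF and LEF) or GGTGTGA (T-box).
Gm46838: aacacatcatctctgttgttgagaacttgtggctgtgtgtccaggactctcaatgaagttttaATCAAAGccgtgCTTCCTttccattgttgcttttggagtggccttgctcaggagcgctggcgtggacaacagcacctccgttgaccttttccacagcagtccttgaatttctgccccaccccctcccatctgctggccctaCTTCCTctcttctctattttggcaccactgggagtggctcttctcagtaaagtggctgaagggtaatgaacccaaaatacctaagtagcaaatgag
Gm45805: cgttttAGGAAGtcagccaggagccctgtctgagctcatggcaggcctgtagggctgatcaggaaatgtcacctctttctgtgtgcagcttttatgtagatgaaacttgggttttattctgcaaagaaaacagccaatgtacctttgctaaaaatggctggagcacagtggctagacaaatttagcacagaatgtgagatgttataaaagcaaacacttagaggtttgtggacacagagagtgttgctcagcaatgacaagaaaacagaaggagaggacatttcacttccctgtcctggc
Gm40860: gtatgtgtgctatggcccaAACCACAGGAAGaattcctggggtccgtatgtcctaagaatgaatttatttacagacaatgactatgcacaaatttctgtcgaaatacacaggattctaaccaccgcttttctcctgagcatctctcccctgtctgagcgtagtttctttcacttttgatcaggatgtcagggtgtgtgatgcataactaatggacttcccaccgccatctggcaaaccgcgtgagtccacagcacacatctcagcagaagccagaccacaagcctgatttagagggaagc
2010204K13Rik: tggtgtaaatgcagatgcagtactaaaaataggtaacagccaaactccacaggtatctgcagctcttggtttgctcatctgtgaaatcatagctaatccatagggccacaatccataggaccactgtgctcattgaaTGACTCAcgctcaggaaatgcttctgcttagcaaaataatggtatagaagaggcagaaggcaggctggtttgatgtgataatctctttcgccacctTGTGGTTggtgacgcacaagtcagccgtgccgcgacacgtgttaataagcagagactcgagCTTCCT
The window of Gm46838 lies on the minus strand at chr3:105825804-105826103, 24.1 kb from Rap1a, a small GTPase gene, and has 2 ETS matches and 1 TCF and LEF match. That of Gm45805 (minus strand, chr8:126758304-126758603) is 164 kb from Irf2bp2 and has 1 ETS match. The window of Gm40860 (plus strand, chr13:30003125-30003424) is 17 kb from E2f3, a cell cycle transcription factor gene, and has a RUNX match that runs into an ETS match. In 2010204K13Rik (minus strand, chrX:7422939-7423238), 46.9 kb from Usp27x, AP-1, ETS and RUNX had 1 match each.

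Across the 89 windows, ETS matches were found in 49 (55.1%) and AP-1 matches in 14 (15.7%). The same motifs were in 37.1% and 9.31% of all 11575 lncRNA windows, and in 41.8% and 10.2% of the 244 windows at least 50% covered by a region called in all 9 lists. RUNX matches were in 11.2% of the 89 windows, 11.5% of the 244 and 6.3% of all lncRNA windows. TCF and LEF matches were in 6.74%, 4.92% and 4.67%, and T-box matches in 3.37%, 4.92% and 4.54%. A GGGCGG match (KLF and SP) was in 23.6% of the 89 windows and in 42.2% of the windows of regions called throughout. These windows also differed in base composition: the median window held 6 CpG dinucleotides at 51% GC in the 89, against 11 at 54.7% in the 244. The shares are descriptions without a test, and a match is not a measured binding site.

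Of 1005 miRNA hairpins in the table, 62 (6.17%) lay within 10 kb of a late-called region between genes, and 41 of the 62 lay outside protein-coding genes. No such share is given for other regions, so the 6.17% does not show a preference for miRNA genes. Only 2 of the late-called regions (0.0431%) overlapped a miRNA gene. The share was 0.0992% of all called regions between genes and 0.3% of those called in all 9 lists. The mature miRNAs shown come from hairpins inside or beside such regions and were picked after the values were seen, with preference for miRNAs studied in T cells; capitals mark the seed, bases 2 to 8, which pairs with target RNAs.
miR-29a-3p: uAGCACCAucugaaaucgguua
miR-29b-3p: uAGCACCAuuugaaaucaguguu
miR-146a-5p: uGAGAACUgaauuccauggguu
miR-155-5p: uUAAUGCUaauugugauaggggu
miR-21a-5p: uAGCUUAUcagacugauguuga
let-7i-5p: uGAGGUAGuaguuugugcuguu
let-7d-5p: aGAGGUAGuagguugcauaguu
miR-106a-5p: cAAAGUGCuaacagugcagguag
miR-20b-5p: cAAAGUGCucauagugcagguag
miR-363-3p: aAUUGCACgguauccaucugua
miR-193a-3p: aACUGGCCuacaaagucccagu
miR-9-5p: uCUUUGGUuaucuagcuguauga
The pairs miR-29a and miR-29b, let-7i and let-7d, and miR-106a and miR-20b each share a seed. In T cells, miR-29 is known to target Tbx21, Eomes and Ifng transcripts, miR-146a restrains NF-kB signalling, miR-155 is induced by receptor stimulation and supports effector expansion, and let-7 miRNAs are high in naive cells.

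The late-called regions between genes were of modest strength and length. Strength is given as the percentile of a region's fold enrichment, the summit over the library's local background, among the 34555 regions called in all 6 lists of days 8 and 21, computed within each list so that libraries can be set side by side. The median percentile was 30.4 ± 0.577 on D8 and 31 ± 0.866 on D21 (mean ± SD of 3 lists), at a median fold of 5.61 to 5.75. The median summit held 21 to 28 tags over a background of 2.64 to 3.66 tags, and the median called length was 332 to 383 bases. Regions between genes that were called in all 9 lists had a median percentile of 71.4 to 72.9, a fold of 8.59 to 8.75 and a length of 636 to 697 bases; strength decides whether a short list holds a peak, so this gap comes with the choice of the regions. The regions had q values of 0.01 or less in all 6 lists in 4635 of 4641 cases, and of 1e-05 or less in 3498 (75.4%).

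**Figure D1:**
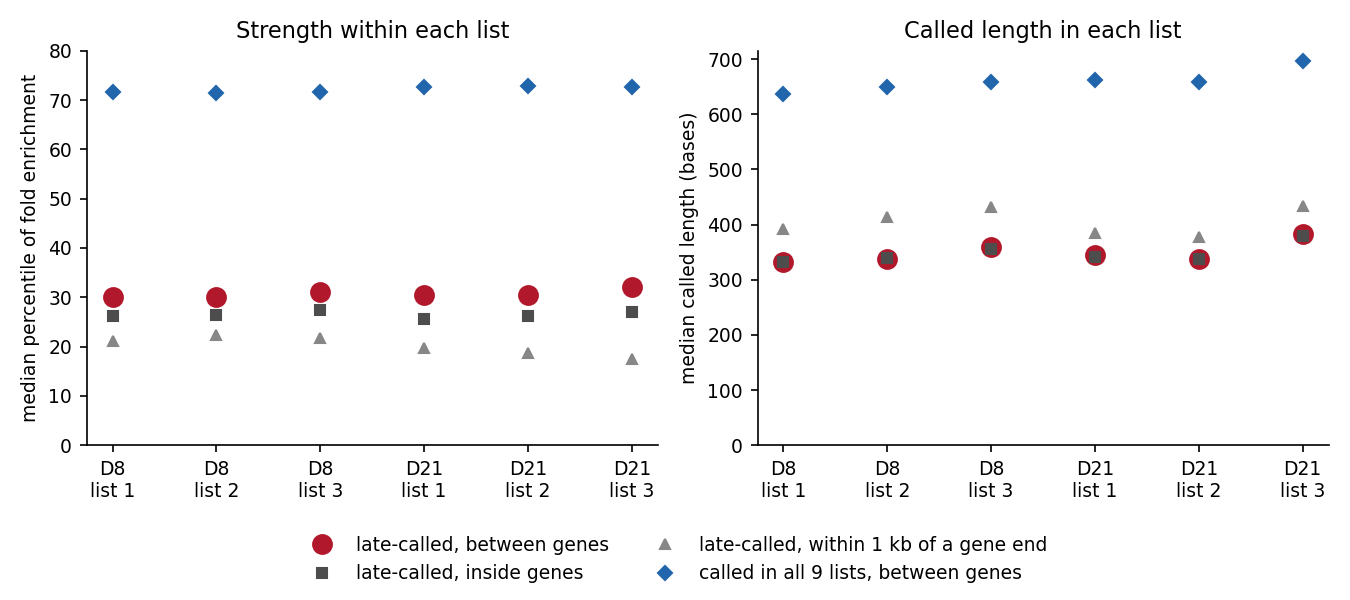
Median strength percentile (left) and median called length in bases (right) of 4 classes of regions in each of the 6 lists of days 8 and 21, 1 point per list. The late-called regions between genes sit at percentiles of 30.1 to 32, above the late-called regions inside genes (25.5 to 27.4) and near gene ends (17.4 to 22.3) in every list, and far below the regions between genes called in all 9 lists (71.4 to 72.9).

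Position relative to genes was compared among regions with the same calls. By fold, regions between genes ranked above late-called regions inside genes in 6 of 6 lists, by 4.24 ± 0.6 percentile points (mean ± SD), and above those near gene ends in 6 of 6 lists, by 10.6 ± 2.45 points. The exact sign-flip test over the 6 lists gave p = 0.0312 for each, the smallest value it allows, or 0.0417 adjusted over 4 comparisons. The order turned when regions were ranked by the tags at the summit, with differences of -2.37 points (exact p = 0.0312) against regions inside genes and -4.07 points (exact p = 0.0625) against regions near gene ends. Local background moved with the classes: its median was 2.64 to 3.66 tags between genes, 2.92 to 4 inside genes and 3.42 to 4.46 near gene ends. Called length differed from regions inside genes by 1.08 ± 2.29 bases (-2.5 to 3 over the 6 lists, exact sign-flip p = 0.25), and differed from regions near gene ends by -76 to -40 bases over the 6 lists (shorter in 6 of 6, mean -56.5, exact sign-flip p = 0.0312, adjusted 0.0417). Among regions over 5 kb from a gene end, against a class of late-called regions within 5 kb, the length difference was -1.17 bases (exact p = 0.844).

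The regions varied widely among themselves. The mean percentile over the 6 lists ran from 0.0444 to 93.3, with 10% of regions below 11.4 and 10% above 58.6, and 879 (18.9%) were above the middle of all regions called throughout both later days. Among the 19499 strongest peaks of each list, 694 to 753 of the regions (15% to 16.2%) were present, 122 in all 6 lists and 2917 (62.9%) in none. The mean called length ran from 209 to 1560 bases with a median of 355, and 19 regions were longer than 1000 bases. Summits were placed reproducibly: the median distance between the summits of 2 lists was 22 to 25 bases within a day and 24 to 28 bases between days. In regions between genes called throughout, which have higher summits, it was 15 to 16 and 17.5 to 19 bases.

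The strongest region of all lay 76.8 kb from Ikzf2, which encodes Helios, a zinc finger factor of the Ikaros family found in regulatory and chronically stimulated T cells. At chr1:69453843-69454383 its percentile was 82.9, 91.8 and 95.9 on D8 and 98.6, 94.1 and 96.4 on D21, and its fold was 10 to 13.6. It ranked above 82.9% or more of the regions in each of the 6 lists. The third strongest lay 87.8 kb from Bcl2l11, which encodes the death-inducing protein Bim (chr2:128250396-128251340, mean percentile 89.9), and the sixth lay 41.7 kb from Nck2, an adaptor of receptor signalling. The Nck2 region (chr1:43403379-43403774) had percentiles of 86.6, 81.2 and 70 on D8 and 96.9, 96.3 and 94.2 on D21, so the days did not overlap, but it did not pass the test for a change (limma adjusted p = 0.0505). The others of the strongest 8 were nearest to Olfr266, Plekhf2, Raet1e, Galnt14 and Rxfp4, with mean percentiles of 86.1 to 91.5. Of the 122 regions among the strongest peaks of all 6 lists, 6 lay within 100 kb of a nearest gene that is in the T cell or cell type lists used here: Ikzf2, Bcl2l11, Nr4a3, Cd44, Bhlhe40 and Itgam. Of all 4641 regions, 197 were assigned to the T cell lists and 19 to the lists of other cell types, a similar share.

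The 8 longest regions were spread over the range of strength, with mean percentiles of 12.3 to 59.8. The longest region lay 20.7 kb from Gars, the glycyl-tRNA synthetase gene (chr6:55015605-55017320), and was called over 1485, 1612 and 1699 bases on D8 and 1241, 1638 and 1687 bases on D21. Its mean strength percentile was 19.3. The next in order were nearest to Katnal1 (1355 bases on average), Bcl6 (1289) and Galr1 (1262). The Bcl6 region lay 103 kb from that gene, which encodes a repressor needed by follicular helper and memory-precursor T cells (chr16:24092180-24093538). The sixth longest lay beside the miRNA cluster described below.

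The values on either side of the rule's limits are given as a description. The 3 regions closest to 1 kb on the inner side lay 999, 999 and 1000 bases from S100a6, Ap1m2 and Cwh43, with folds of 3.52 to 6.47. The 3 closest on the outer side lay 1003, 1004 and 1004 bases from Sntb2, Slamf6 and Bglap2, with folds of 4.16 to 10. Between genes, 1676 regions had no D4 call and 5 of 6 later calls, with a median fold of 4.66 to 4.78. A further 1439 had all 6 later calls and 1 D4 call, with a median fold of 6.38 to 6.48.

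The regions lay at the distances from genes that open regions between genes have in these cells. The median distance to the nearest gene end was 19.3 kb, with the middle 50% between 7.19 and 50.8 kb and the farthest at 1324 kb. It was 19.9 kb for regions between genes called in all 9 lists and 19.3 kb for all 21175 called regions between genes. A total of 616 regions (13.3%) lay over 100 kb from any gene. The nearest region called in a D4 list was a median of 26 kb away, against 20.7 kb for late-called regions inside genes, and 11.7% had one within 5 kb. On single chromosomes, the regions were 20.5% to 23.7% of the called regions between genes.

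Many of the neighbouring genes already had an open end on day 4. For 2563 regions (55.2%) the nearest gene had a region within 1 kb of an end that was called in all 3 D4 lists. The share of regions was 55.5% for late-called regions inside genes, 60.4% for regions between genes called throughout and 55.1% for all regions between genes. With each gene counted once, 1639 of the 3092 nearest genes had such an end, against 9082 of all 21627 genes (42%). For all regions between genes it was 3730 of 7531 nearest genes. For 325 regions (7%) the nearest gene's ends were called only later, in all 6 lists, and for 1076 (23.2%) they were called in no list. Noncoding genes overlapped 1143 of the regions (24.6%), mostly lncRNAs (971, 20.9%), against 24.9% of all called regions between genes and 32.7% of those called throughout. The regions overlapped V segments of receptor and immunoglobulin genes in 32 cases (0.69%). The share was 0.548% of all called regions between genes and 0.768% of those called throughout. They overlapped tRNA genes in 13 cases (0.28%, against 0.434% of all called regions between genes and 1.47% of those called throughout).

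**Figure D2:**
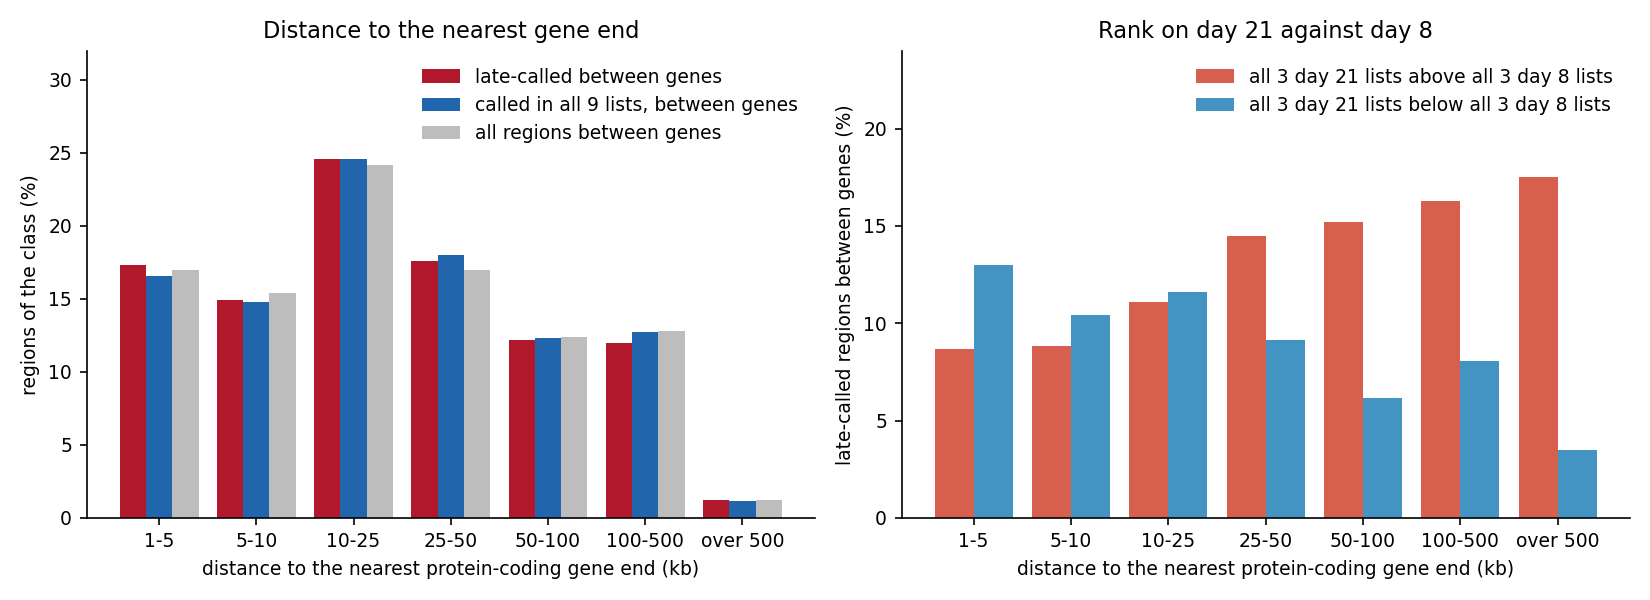
Left, share of regions (%) in bins of distance to the nearest gene end (kb), for the late-called regions between genes, the regions between genes called in all 9 lists, and all called regions between genes. Right, share of the late-called regions (%) whose 3 D21 lists all ranked above, or all below, their 3 D8 lists, by the same bins. The 3 distance profiles lie close together, while the share ranking higher on D21 goes from 8.7% within 5 kb to 17.5% beyond 500 kb.

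Some regions stood in groups. Of the 4641, 1074 (23.1%) had another late-called region between genes within 12.5 kb, and 70 groups held 3 or more. The largest group held 7 regions over 52.2 kb beside Ifng, the gene of interferon gamma (chr10:118455796-118507970). The next held 6 over 29.1 kb upstream of the miR-29a and miR-29b-1 hairpins (chr6:31072080-31101164). Among 11 groups of 4 were ones between Cd28 and Ctla4, between Cd44 and Pdhx, beyond Bcl2l11, beside Mef2a and next to the miR-21a hairpin. Late-called regions inside genes formed 127 groups of 3 or more, and 26.6% of them had such a neighbour.

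By gene, 2955 of 21627 protein-coding genes (13.7%) were the nearest to at least 1 of the 4025 regions within 100 kb of a gene. Of these genes 2206 had 1 region, 217 had 3 or more and 76 had 4 or more. Ifng had the most with 9, followed by Tgfbr2 with 7 and by Fasl, Prex1, Kcna3, Dapl1 and Btg1 with 6 each. Of these, Fasl encodes the death ligand by which T cells kill, Kcna3 the potassium channel Kv1.3 of activated T cells, and Btg1 an antiproliferative factor linked to quiescence. The 9 at Ifng were among 19 called regions between genes nearest to it, the 7 at Tgfbr2 among 14, the 6 at Fasl among 20 and the 6 at Kcna3 among 8.

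**Figure D3:**
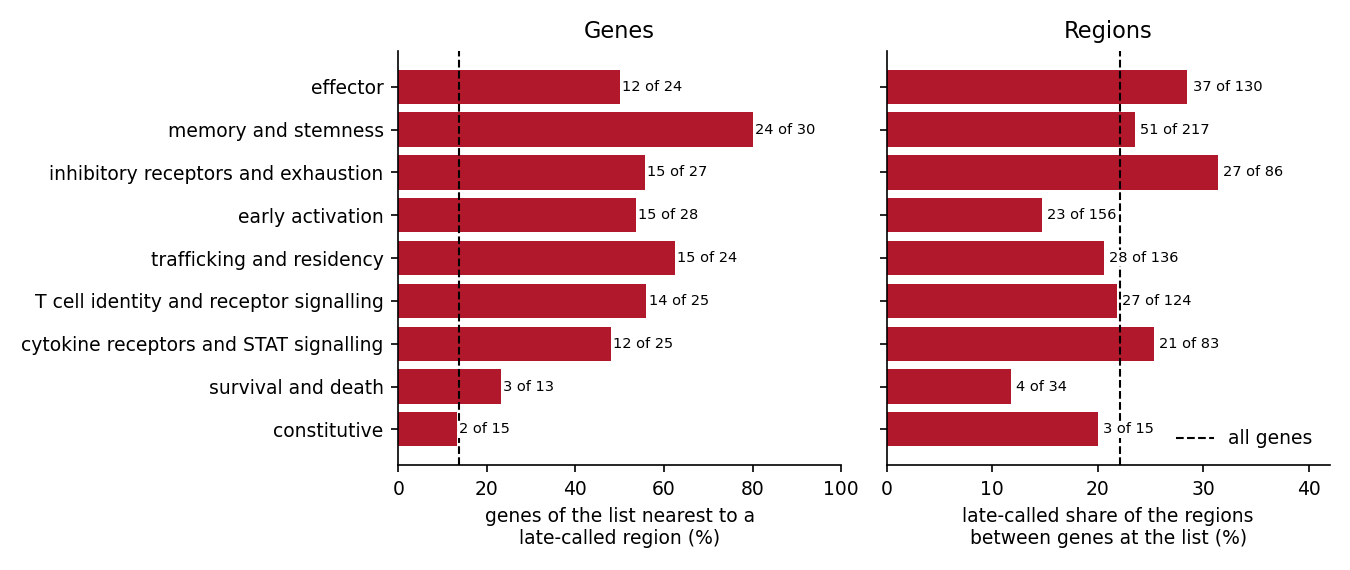
Left, share of genes (%) in each list that were the nearest gene to at least 1 late-called region between genes within 100 kb. Right, the late-called regions as a share (%) of all called regions between genes nearest to the list's genes. The lists of other cell types are not drawn. The share of genes is highest for the memory and stemness list (80%), against 13.7% of all genes, while the share of regions spans 11.8% to 31.4% over the T cell lists, around 22.1% for all genes.

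Lists of genes by role were read against these counts, without a test. In the effector list, 12 of 24 genes had at least 1 region, 37 regions in all, which were 28.5% of the called regions between genes nearest to those genes, against 22.1% for all genes. In the memory and stemness list, 24 of 30 genes had 51 regions (23.5%). The list of inhibitory receptors and exhaustion had 27 regions at 15 of 27 genes (31.4%). Early activation genes had 23 regions at 15 of 28 genes (14.7%), trafficking genes 28 at 15 of 24 (20.6%), and genes of T cell identity and receptor signalling 27 at 14 of 25 (21.8%). Cytokine receptors and their signalling had 21 regions at 12 of 25 genes (25.3%), and survival and death genes 4 at 3 of 13 (11.8%). Genes of other cell types had 19 regions at 16 of 44 genes, and constitutively active genes had 3 at 2 of 15 (20%). The share of regions was 35.3% (6 of 17) at myeloid genes and 30% (6 of 20) at stroma and endothelium genes. It was 33.3% (2 of 6) at B cell and at melanoma genes, and 9.09% (1 of 11) at NK cell genes. CD4 T cell and erythroid genes had 1 of 2 and 1 of 1. Shares as high as those of the effector and inhibitory lists were thus also found at genes of other cell types. Called regions between genes of any kind numbered 130 at the 24 effector genes and 217 at the 30 memory genes, against 18208 over all 21627 genes, so a high share of genes with a late-called region goes with many called regions of all kinds.

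Ifng, the main effector cytokine of CD8 T cells, had regions 9.9 to 88.1 kb away with mean percentiles of 16.1 to 69.6. The strongest, 40.7 kb from the gene (chr10:118486572-118487296), had percentiles of 46.7, 64.7 and 67.7 on D8 and 78.7, 73.5 and 86.1 on D21, at folds of 6.69 to 10.1. The one nearest to the gene (chr10:118455796-118456115) had 5.85, 8.1 and 10.3 on D8 and 23.1, 27.7 and 21.8 on D21. At both, the D21 lists all stood above the D8 lists, but neither passed the test (limma adjusted p = 0.159 and 0.167). On the other side of the gene, at 33.7 kb (chr10:118406862-118407354), the days overlapped, with 34.8, 54.6 and 14 on D8 and 42.4, 53.1 and 49.7 on D21. Of the 9, the regions starting at 118507491 and 118533951 overlapped Ifngas1, a lncRNA gene known to act on Ifng.

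Other effector genes had fewer or weaker regions. The 6 at Fasl lay 5.97 to 86.5 kb away and had mean percentiles of 10.3 to 28.3, all below the median late-called region. The nearest of them (chr1:161794462-161795212) had 22.2, 26 and 14 on D8 and 32.1, 31.3 and 44.4 on D21. Gzmb, which encodes granzyme B, had 3 at 13.4 to 41.8 kb. Bhlhe40, a factor that supports the mitochondria of resident and tumor-infiltrating CD8 T cells, had 4, of which chr6:108630585-108631411 had a mean percentile of 74.2. Id2, which promotes effector differentiation, also had 4, and Zeb2, a factor of terminal effector cells, had 2, one of them strong (chr2:44960191-44960962, mean percentile 68). Tbx21, the gene of T-bet, and Prdm1, that of Blimp-1, had 1 region each. None was nearest to Gzma, Gzmk, Prf1, Cx3cr1 or Ccl5.

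Among memory and stemness genes, Tgfbr2, the receptor subunit through which TGF-beta restrains T cells, had regions 2.81 to 95 kb away. The one at 74.4 kb (chr9:116249805-116250298) had percentiles of 26.9, 18.4 and 22.8 on D8 and 35.5, 72.4 and 67.6 on D21 (limma adjusted p = 0.0951). Dapl1, a marker of stem-like and memory CD8 T cells, had 6, led by chr2:59522102-59522675 at 17.1 kb (mean percentile 70.6). Foxo1, the factor that maintains Il7r and Ccr7, had 4 at 24.3 to 93.6 kb with mean percentiles of 10.4 to 47.4. Ccr7, the lymph node homing receptor, also had 4, but all were weak (mean percentiles 1.86 to 13.4). Tcf7, the gene of TCF-1, had 1 weak region at 26.1 kb (chr11:52309474-52309813, mean percentile 1.5). Lef1, which encodes a factor related to TCF-1, had 3; the strongest (chr3:131064879-131065339, 45 kb) had percentiles of 25, 15.1 and 29.1 on D8 and 49.3, 62.4 and 63.8 on D21. Its days did not overlap, and its adjusted p was 0.061 by limma. Cd28, Klf2, S1pr1, Cxcr5, Slamf6 and Eomes had 2 or 3 each, and Bach2, Id3, Bcl6, Il7r, Myb and Satb1 were among those with 1 each.

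The receptors of inhibition and costimulation shared a stretch of chromosome 1. Ctla4, whose product competes with CD28 for its ligands, had 5 regions at 4.63 to 48 kb, and 4 of them stood together at chr1:60860466-60883168. The strongest (chr1:60882737-60883168, 25.9 kb) varied little, with 67.3, 64.4 and 69.1 on D8 and 68.3, 69.5 and 73.3 on D21. Its neighbour at chr1:60875145-60875660 had 61.6, 65.5 and 46.5 on D8 and 17.9, 36.4 and 45.8 on D21, lower in every list, without passing the test (limma adjusted p = 0.199). On the Cd28 side, chr1:60702619-60703125 had 92.9, 73.5 and 63.8 on D8 and 86.4, 65.9 and 69.9 on D21. Near Icos, a costimulatory receptor of the same family, chr1:61045833-61046621 had 3.06, 4.55 and 12.3 on D8 and 46.8, 25.5 and 23.3 on D21 (limma adjusted p = 0.0909). Lag3 had 3 regions close by, at 2.04 to 3.59 kb, all with mean percentiles of 12.9 or less. Pdcd1, Tigit, Batf, Irf4, Cd38 and Cish had 1 each, Tox, Nfatc1, Ikzf2 and Maf had 2 each, and Havcr2, the gene of TIM-3, had none. The strongest of 3 at Nr4a3, an orphan receptor gene induced by receptor signals, lay 79.8 kb away (chr4:47964647-47965292, mean percentile 82).

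Of genes that define T cells, Runx1 and Ets1 had 4 regions each and Cd8b1 had 3, within 14.6 kb. The Ets1 regions were weak (mean percentiles 5.78 to 16.6), and those at Runx1 ranged from 17.2 to 57.1. A region 97.3 kb from Bcl11b, a factor that keeps T cell identity, had 5.44, 0.818 and 1.72 on D8 and 26.2, 28.4 and 17.2 on D21, just short of the threshold (limma adjusted p = 0.0507). Of trafficking genes, Cxcr4 and Xcl1 had 4 regions each, with mean percentiles of 12.2 to 54.3 and 18.9 to 35.4. Among genes of other cell types, the 6 regions at stroma and endothelium genes and the 6 at myeloid genes made up most of the 19. They included 1 beside Pecam1 at a mean percentile of 70.8, although no list had a region at an end of Pecam1.

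**Figure D4:**
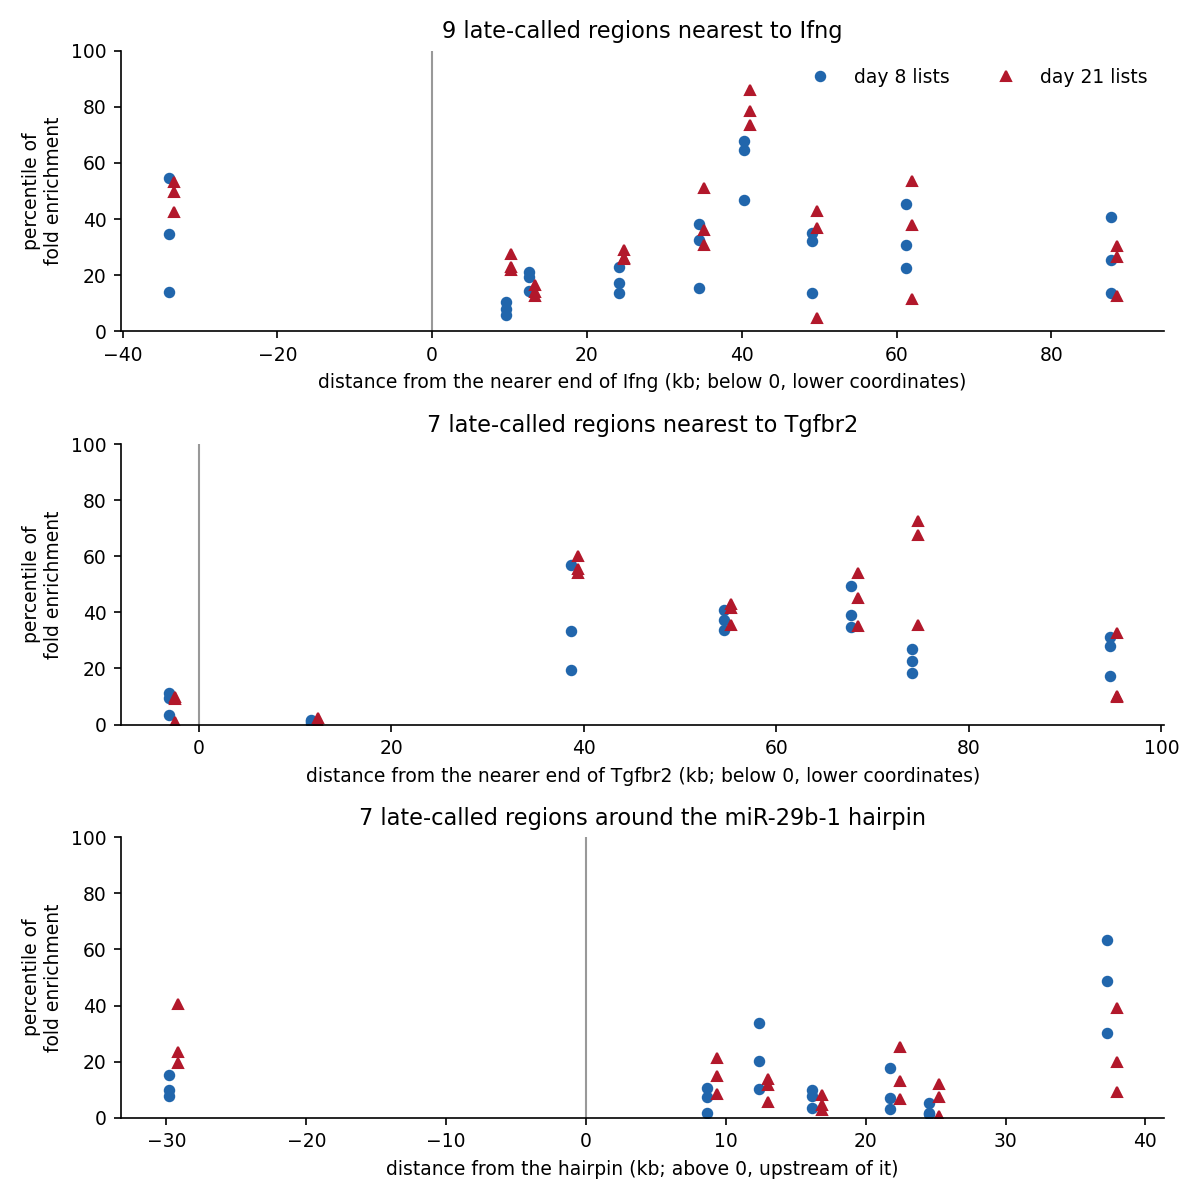
Strength percentile of each late-called region between genes on D8 and D21, 1 point per list, against distance from the gene (kb), at Ifng, Tgfbr2 and the miR-29b-1 hairpin. The region 40.7 kb from Ifng ranges from 46.7 to 86.1, the one 74.4 kb from Tgfbr2 from 18.4 to 72.4, and the 6 regions on the upstream side of miR-29b-1 have mean percentiles of 4.73 to 35.1.

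At the miRNA genes whose sequences are given above, most regions were weak. The hairpins of miR-29b-1 (chr6:31063023-31063093) and miR-29a (chr6:31062660-31062747) are on the minus strand, far from any protein-coding gene, and the 6 grouped regions lay upstream at 8.99 to 37.6 kb. The farthest of the 6 overlapped the lncRNA gene Lncpint. A seventh region, 29.5 kb on the other side, had percentiles of 7.72, 15.2 and 10 on D8 and 19.7, 23.6 and 40.4 on D21 (limma adjusted p = 0.239). At miR-146a (chr11:43374397-43374461), a region 2.55 kb upstream had 15.8, 10.3 and 28 on D8 and 18.9, 26.2 and 10.6 on D21, so the days overlapped. At miR-155 (chr16:84714140-84714204), the region 9.05 kb upstream was among the weakest of all (mean percentile 0.332), and one at 31.5 kb was stronger (34.2).

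The 4 regions downstream of the miR-21a hairpin lay at 1.65 to 9.94 kb and had mean percentiles of 0.0883 to 12.4. The cluster on chromosome X that holds miR-106a, miR-20b and miR-363 had 1 long region 1.23 kb upstream of miR-106a (chrX:52743794-52745113, 1247 bases on average), inside the lncRNA gene Kis2. Its percentiles were 29.1, 13.1 and 21.9 on D8 and 36.8, 49.1 and 27.3 on D21. A region 2.02 kb upstream of let-7i had a mean percentile of 8.16, and one 7.13 kb from let-7d one of 39.5. The hairpins of Mir9-1 and Mir9-2, which give the same mature miR-9-5p, lay inside regions with mean percentiles of 7.76 and 15.1 (chr3:88215483-88215842 and chr13:83737766-83738943). The region beginning 9 bases from miR-193a (chr11:79710811-79711960) had 20.5, 31 and 31.2 on D8 and 5.3, 4.91 and 5.46 on D21, lower in all 3 later lists, but did not pass the test.

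Change in strength between D8 and D21 was tested, a contrast the rule did not use. Normal scores of the percentiles were compared with limma over all 34555 regions called in both days, and p-values were adjusted by Benjamini-Hochberg. At an adjusted p under 0.05, 27 of the 4641 regions (0.582%) rose in rank and 18 (0.388%) fell, against 136 (0.394%) and 74 (0.214%) of all 34555. Late-called regions inside genes gave 29 and 22 of 5920 (0.49% and 0.372%), and no difference between the classes was tested. Before adjustment, p was under 0.05 for 1029 of the 4641 (22.2%), against 16.5% of all regions. It was so for 20% of late-called regions inside genes, 19.1% of those near gene ends and 11.8% of regions called in all 9 lists. The D21 lists all stood above the D8 lists at 564 regions (12.2%, against 10.3% of all regions) and all below at 466 (10%, against 10.9%). The median change was 0.3 percentile points, and 2661 regions (57.3%) moved by under 10 points, against 71.2% of all regions. The other late-called classes lay between, with 60.9% inside genes and 66.1% near gene ends, and regions called in all 9 lists had 83.8%. These counts depend on the measure: ranked by the caller's -log10 q they were 193 and 145, and ranked by called length 0 and 0. The p-values rest on the spread between lists of the same day. In summit tags over the 4641 regions, that spread was smaller than independent counts would give, and so was the mean difference between days.

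**Figure D5:**
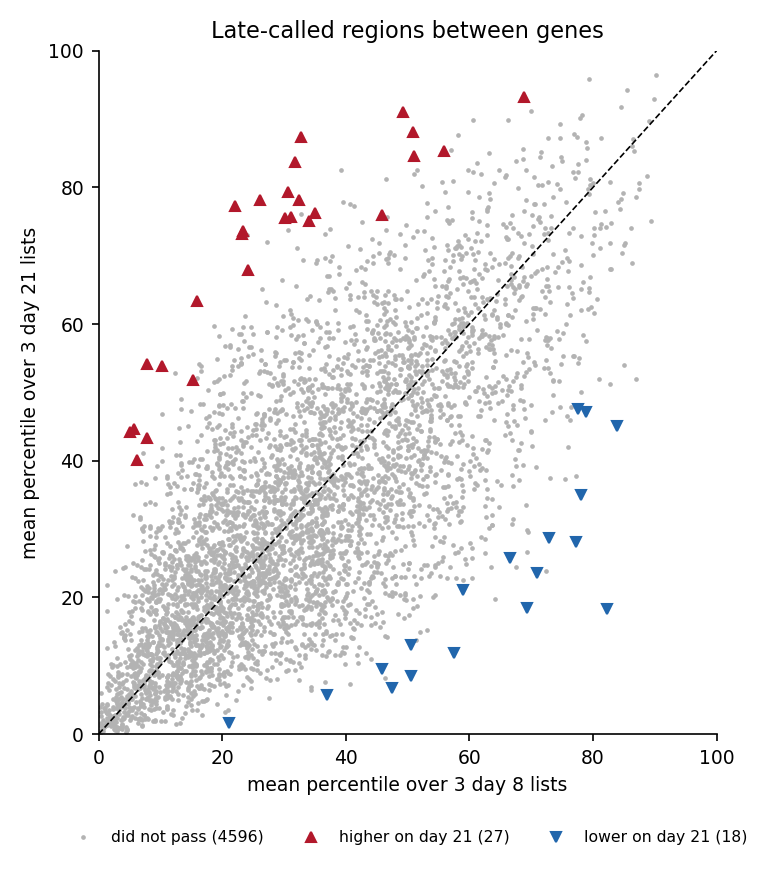
Mean strength percentile on D8 (horizontal) and D21 (vertical) of the 4641 late-called regions between genes, with the 27 that rose and the 18 that fell at a limma adjusted p under 0.05 marked. Most points lie near the diagonal (57.3% moved by under 10 points), and the marked regions lie away from it on both sides.

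The regions that rose included several far from any gene. The one with the smallest adjusted p lay 350 kb from Tox, which encodes a factor that establishes the exhausted state (chr4:7341117-7341538): its percentile was 26.9, 44.2 and 27.4 on D8 and 88.4, 83.1 and 90.7 on D21. The score rose by 1.61 ± 0.19 (SE, limma adjusted p = 0.00833), with no overlap of the days, whereas neither of the 2 regions within 100 kb of Tox passed the test. A region 426 kb from Zfp608 (chr18:55418898-55419685) went from 16.7, 34.9 and 14.7 to 88.4, 65.7 and 77.7 (score 1.59 ± 0.24, limma adjusted p = 0.0196). Near Pag1, which encodes an adaptor that recruits the inhibitory kinase Csk, chr3:9910818-9911325 went from 21.7, 11.5 and 44.9 to 71.4, 75.2 and 87.6 (limma adjusted p = 0.0358). Near S100a11, the gene of a calcium-binding protein, chr3:93514525-93515131 went from 26.9, 15.6 and 27.4 to 80.8, 72.2 and 67.7 (1.38 ± 0.20, limma adjusted p = 0.0179). A region 6.21 kb from Ifi203, an interferon-induced gene, and one 108 kb from Gm40892 rose by 1.60 ± 0.29 and 1.43 ± 0.26 (limma adjusted p = 0.0361 and 0.036). The gap that holds Gm40892 had 3 of the 27, and the region 363 kb from Gata3, a T cell transcription factor gene, went from a mean of 32.4 to 78.1 (limma adjusted p = 0.0291).

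The regions that fell lay mostly closer to genes. The one with the smallest adjusted p of all, 25 kb from Pax7, a muscle stem cell factor gene (chr4:139858538-139859096), went from 86.3, 83.7 and 76.9 on D8 to 15.9, 16.9 and 22.2 on D21. Its score fell by 1.85 (SE 0.19, limma adjusted p = 0.00286), and it passed the test also when any 1 list was left out. A region 14 kb from Osbpl7 and 14.7 kb from Tbx21 (chr11:97082912-97083281) went from 54.5, 66.2 and 51.9 to 7.95, 21.9 and 5.76 (fell by 1.45, SE 0.26, limma adjusted p = 0.036). Near Rcl1 and 65.6 kb from Jak2, a kinase gene of cytokine receptors, chr19:29185450-29186160 went from 77.4, 73 and 57.7 to 30.5, 17.3 and 7.42 (fell by 1.49, SE 0.26, limma adjusted p = 0.0354). Regions near Eapp, Ppp1r10 and Tent5b fell by 1.37, 1.32 and 1.21, and one 292 kb from Satb1, a gene of chromatin organisation in T cells, fell from a mean of 50.6 to 8.52 (limma adjusted p = 0.0429). With 1 list left out, 0 to 8 regions rose and 1 to 4 fell, with the fewest (0 and 1) without D21 replicate 1.

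None of the 197 regions assigned to the 8 T cell lists passed the limma test between D21 and D8 after adjustment, against shares of 0.582% higher and 0.388% lower over all 4641, which are too small to read anything from 0 of 197. Before adjustment, p was under 0.05 for 28 that were higher and 18 that were lower (23.4%), close to the 22.2% of all 4641. In the effector list, 25 of 37 had a higher mean on D21, with a median change of 4.11 percentile points, and in the memory list 34 of 51, with 2.83. In the inhibitory list it was 15 of 27 (1.5 points), in the activation list 12 of 23 (0.236), in the identity list 17 of 27 (3.1), and in the trafficking list 13 of 28 (-0.624). For all 4641 it was 2383, with 0.3. These medians are small beside the spread of single regions, of which 10% changed by -16.8 points or less and 10% by 18.2 or more.

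Distance to a gene went with the direction of the change. The median distance was 77.1 kb for the 27 regions that rose and 8.23 kb for the 18 that fell, and 10 of the 27 but 1 of the 18 lay over 100 kb away, against 13.3% of all 4641. Over all regions, the median change from D8 to D21 was -0.707 points at 1 to 5 kb, -1.52 at 5 to 10 kb, -0.48 at 10 to 25 kb, 1.01 at 25 to 50 kb, 1.56 at 50 to 100 kb, 3.33 at 100 to 500 kb and 3.8 beyond. The share whose D21 lists all stood above the D8 lists went from 8.7% at 1 to 5 kb to 16.3% at 100 to 500 kb, and the share with all below from 13% to 8.05%. This comparison was chosen after these values had been seen.

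List by list, the median percentile of the 616 regions over 100 kb from a gene exceeded that of the 1497 within 10 kb by 3.14, 2.84 and 1.62 points on D8 and by 10.2, 6.6 and 9.4 points on D21. The gap was 2.54 ± 0.805 on D8 and 8.75 ± 1.91 on D21 (mean ± SD, 3 lists), a difference of 6.21 points, and the days did not overlap. An exact permutation test over the 20 arrangements gave p = 0.1, the smallest that 3 lists against 3 allow, so the design cannot reach 0.05. The far regions had medians of 30.4, 31.7 and 31.2 on D8 and 35.8, 33.3 and 37.4 on D21, and the near ones 27.3, 28.8 and 29.6 on D8 and 25.5, 26.7 and 28 on D21. Among regions between genes called in all 9 lists, the same gap was 6.69 ± 0.738 on D8 and 7.61 ± 0.274 on D21, a difference of 0.913 points. Regions called in all 9 lists changed less in rank, and 83.8% of them moved by under 10 points. No such gap is given for the other late-called regions. Their median change was -1.46 points near gene ends, with 7.63% all above and 14.4% all below. Inside genes it was 0.0393 points, with 10.7% and 10.3%. In the late-called regions between genes, the direction of the gap held when strength was ranked by -log10 q, by summit tags or by called length. It also held among these regions alone, with limits of 50 and 5 kb, and with any 1 list left out (5.46 to 7.29).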

How the data were processed

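ATAC-seq peak lists of 9 libraries, 3 per day, were used as the authors deposited them, 1 list per library on mm10. The submitters' processing notes name the tools BWA 0.7.15, MACS2, Picard and deepTools 2.0 and give them no roles; for read filters, any Tn5 shift and caller settings, the sources used here say nothing. The deposited columns hold the position of a peak, a score made from its q value, a fold enrichment at the summit (a ratio to the library's own local background), −log10 of its p-value and q-value, and the summit's offset. Every listed peak had a q of 0.05 or less. Groups and replicate numbers came from the sample titles, because the labels' genotype and time point tags carry each other's values.

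Peaks on chromosomes 1 to 19 and X were merged where they shared 1 base. Protein-coding genes came from a RefSeq table for GRCm38.p6, with no strand used, so distances run to the nearer gene end. A region belongs to the nearest gene within 100 kb. Folds cannot be compared between libraries, so each region's fold was turned into a percentile within its list, and normal scores of the percentiles were compared between D21 and D8 with limma 3.58.1 (trend, robust; R 4.3.3) and Benjamini-Hochberg adjustment over all 34555 regions. Classes were compared by two-sided exact sign-flip tests over the 6 lists. Summit tags were recovered from fold and −log10 p, and came out whole for 99.995% or more of the peaks of a list (tolerance 0.01). Python 3.11.15 with numpy 2.4.6, pandas 2.3.3, scipy 1.17.1 and matplotlib 3.10.9 was used for the rest. The limma step was also run on simulated tags, drawn independently for each list and ranked by tags instead of folds. Over the late-called regions between genes, summit tags of same-day lists differed less than independent counts, so the simulation does not give error rates for these data.

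The regions, gene lists and tests were chosen with earlier results of these data known. Named regions were the 8 strongest, the 8 longest, the 6 largest rises and falls of mean percentile among regions past the test without overlap, and the strongest region of each listed gene, with genes taken by their number of regions; other regions named, and those at miRNA genes, were chosen after their values were seen. Of the gene symbols in the lists, all matched the table except 1 trafficking gene, Znf683. Results for a few listed genes are not reported here. The motif search in the regions themselves was not run, as no genome was used here. The sequence tables used cover all these chromosomes except 18. Alternatives covered the rank measure, the q limit, list length, distance limits, gene types, the replicate block and leaving out each list.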

Additional observations from a re-analysis of the deposited data

How the results depend on the processing

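The number of late-called regions between genes was 153 with all lists cut to the shortest, 3351 to 4755 under 4 other rules and 4752 to 5448 with any 1 list left out. Ranking by summit tags reversed the strength difference to -2.37 points against regions inside genes and -4.07 against regions near gene ends. With a 5 kb limit, the length difference from regions near gene ends was -1.17 bases. With 5 lists the smallest exact sign-flip p is 0.0625, and the strength differences were 4.09 to 4.35 and 9.74 to 11.1 points and the length difference -59.8 to -52.6 bases. The median distance to a gene was 6.38 kb over all gene types. The share of regions whose nearest gene had an end called on day 4 was 57.9% within 2 kb of an end and 55% to 57.1% with any 1 list left out.

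Regions that rose and fell between D8 and D21 (27 and 18) numbered 193 and 145 when ranked by -log10 q (4.19% and 3.36% of all regions, 4.16% and 3.12% of these), 378 and 311 by summit tags (10% and 9.27% of all, 8.14% and 6.7% of these), 69 and 49 when ranked among themselves, 14 and 8 by limma without trend, and 0 and 0 by called length, where limma called 1 and 0 of all 34555 and the unadjusted p was under 0.05 for 291 and 304 of these regions. With any 1 list left out they numbered 0 to 8 and 1 to 4. With the replicate block they numbered 16 and 6; of the 12 named changes, those near Ppp1r10 and Tent5b then had limma adjusted p = 0.0607 and 0.0506, and the other 10 passed. Lists of the same number did not deviate together (correlations 0.0163, -0.00178 and 0.0189). The labels do not say whether they share more than a number. All 12 named changes passed when ranked by -log10 q, by summit tags or among these regions alone, and none passed by called length. The cause of these shifts was not tested. The added checks of the distance gap kept its direction: 6.32 by -log10 q, 7 by summit tags, 3.93 by length, 9.89 among these regions alone, 6.07 with limits of 50 and 5 kb, and 5.46 to 7.29 with any 1 list left out. A region not called on day 4 may still be open there, below the limit of a shorter list.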

Other observations

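Outside the gene lists, several changed regions lay beside genes with known roles in lymphocytes. A region 68.9 kb from Tet2, which encodes an enzyme that oxidises methylated cytosine, rose from a mean percentile of 55.9 on D8 to 85.3 on D21 (limma adjusted p = 0.036). A region 74.5 kb from Samsn1, the gene of an adaptor that dampens lymphocyte signalling, rose from 7.82 to 43.3 (limma adjusted p = 0.0399). One 1009 kb from Cited2, a transcriptional coregulator gene, rose from 51.1 to 84.6 (limma adjusted p = 0.0291). One 21.4 kb from Nsmaf rose from 31.1 to 75.6 (limma adjusted p = 0.0194). It lay 210 kb from Tox, on the opposite side of that gene from the rising region 350 kb away. Of the regions that fell, one 2.36 kb from Ms4a10 went from 78 to 35 (limma adjusted p = 0.0196) and one 4.2 kb from Utp4, a ribosome biogenesis gene, from 78.9 to 47.1 (limma adjusted p = 0.0425). These were chosen from the 45 changed regions after their values were seen.

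Lists of the same day were closer to each other than lists of different days over the late-called regions between genes. Spearman's rho of fold over these regions was 0.686 to 0.722 for the 6 pairs of lists of the same day and 0.563 to 0.614 for the 9 pairs of different days. A chi-square per region scaled the difference in summit tags between the lists of a pair to that of independent counts. Its mean was 0.502 to 0.521 for pairs of the same day and 0.866 to 0.95 for pairs of different days. Both ranges lie below the level of independent counts, and the reason was not tested. The regions are not independent replicates, and the lists of a day share the day alone as far as the labels tell.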
